A study of Arabidopsis thaliana with 4 samples.

Results

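Root transcripts of an Arabidopsis thaliana line labelled CEPDL2ox were set against those of wild type (WT, Col), on 2 of the 4 arrays of the study. The measurement was the log2 signal of each gene on an Affymetrix Arabidopsis Gene ST array, and the difference reported is CEPDL2ox minus WT. All rows annotated with a single gene were used, with the row of highest mean over the 4 arrays taken for each gene, which gave 16548 genes from 38408 rows of the table. Of these genes, 7940 had a mean signal over both arrays at or above 5.17, the mean of the medians of the 2 arrays over all rows, and these are described first. The study's other arrays hold lines labelled CEPD1ox and CEPD2ox, and their values are given beside many of the genes named. Where they are left out, no statement is made on whether a difference is shared with those lines.

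Seedlings of all 4 genotypes spent 7 d on B5 medium under continuous light at 22 °C. They then received a medium rich in nitrogen, which held NH4Cl and KNO3 at 10 mM each, until roots were taken at 14 d. The suffix ox is read here as overexpression. The sources used here do not state the promoter, the number of independent lines or how many plants went into an array. There was 1 array per genotype, so no spread within a genotype and no test. Every difference below is that between 2 arrays, without a replicate check, and the number of arrays limits its precision.

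CEPD polypeptides are small class III glutaredoxin-like proteins made in the phloem of leaves when nitrogen demand is high. They travel to the root, where they are known to raise the capacity for high-affinity nitrate uptake. CEPDL2 is a member known for responding to the nitrogen status of the shoot itself. CEPH is a type 2C protein phosphatase that removes an inhibitory phosphate from the nitrate transporter NRT2.1, the step named in the study's title. NRT2.1 itself had no row with a name of its own and was not analysed here.

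The tables used here do not pair the name CEPDL2 with a locus, so the family loci are given by identifier. AT3G62960 had a log2 signal of 5.49 in CEPDL2ox, 3.301 in CEPD1ox, 3.51 in CEPD2ox and 3.46 in WT, which put CEPDL2ox 4.11-fold above WT. AT2G47870, the locus that was planned here as CEPDL2, had 4.49 in CEPDL2ox, 4.23 in CEPD1ox, 4.52 in CEPD2ox and 4.11 in WT, a difference of 0.38. Of the 4 CEPD family loci, AT3G62960 was thus the one at least 2-fold higher in CEPDL2ox than in WT. The values therefore go against AT2G47870 as the gene overexpressed in this line, if the array reads the introduced sequence. CEPD1 (AT1G06830) was at 2.34 in CEPDL2ox and 2.66 in WT, and CEPD2 (AT2G47880) at 1.42 in CEPDL2ox and 1.41 in WT. These values lay under 2.78, the 25th percentile of gene values over the 4 arrays, used here as a mark for low signals. CEPD2 reached 9.22 on the CEPD2ox array. On the CEPD1ox array CEPD1 was at 3.04, only 0.38 above WT. Its own gene thus does not bear out the label of that library, again only if the array reads the introduced sequence. Other values on the CEPD1ox array did stand apart from WT. CEPH was at 5.45 in CEPD1ox and 3.67 in WT, and the unnamed row 13545557 at 11.2 in CEPD1ox and 4.13 in WT. The count against the mean of CEPD1ox and CEPD2ox is also given against CEPD2ox alone.

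CEPH (AT4G32950) was the gene with the largest difference among all 16548, higher or lower. Its log2 signal was 7.51 in CEPDL2ox, 5.45 in CEPD1ox, 5.87 in CEPD2ox and 3.67 in WT. The CEPDL2ox value lay 14.3-fold above WT and 3.59-fold above the mean of the other 2 lines. The plot of the CEPD loci and CEPH by array shows the 2 genes that stand apart on the CEPDL2ox array.

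**Figure D1:**
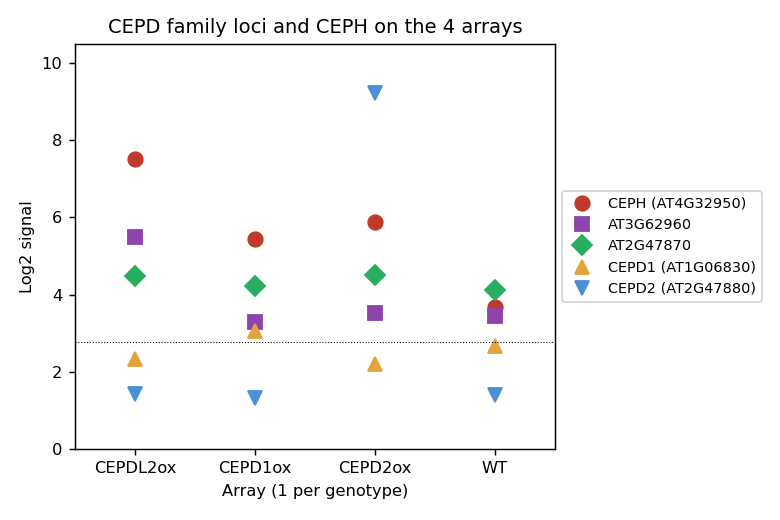
Log2 signal (y axis) of the 4 CEPD family loci and CEPH on each of the 4 arrays (x axis, 1 array per genotype, 1 point per gene and array), with a dotted line at the low-signal mark of 2.78. On the CEPDL2ox array CEPH (7.51) and AT3G62960 (5.49) lie above their values on the other arrays, while CEPD2 is high on the CEPD2ox array alone (9.22).

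Among the 7940 genes at or above the array median, 26 (0.327%) were at least 2-fold higher in CEPDL2ox than in WT and 7 (0.0882%) at least 2-fold lower, together 0.416%. By the same rule CEPD1ox had 7 genes higher (0.0876%) and 10 lower (0.125%) than WT, and CEPD2ox had 6 higher and 6 lower (0.0752% each, 0.15% together). The 3 comparisons share the WT array, and the difference between these counts was not tested. As the level is a mean of both arrays, a gene can enter through a high CEPDL2ox value alone. Where both values had to reach the median of their array, 10 genes were higher and 6 lower in CEPDL2ox, against 5 and 8 in CEPD1ox and 1 and 4 in CEPD2ox. Over all 16548 genes, 113 (0.683%) were higher and 75 (0.453%) lower in CEPDL2ox, together 1.14%. The matching shares over all genes were 0.707% higher and 0.429% lower in CEPD1ox, and 0.532% higher and 0.375% lower (0.906% together) in CEPD2ox. The median difference of all genes was 0.00, and that of genes at or above the array median 0.01, with an SD across these genes of 0.24. Of these 7940 genes, 7622 (96.0%) lay within 0.5 of WT on the log2 scale.

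The width of the differences followed the signal. The SD across genes was 0.38 at a mean signal below 3 and 0.39 from 3 to 5. It was 0.28 from 5 to 7, 0.21 from 7 to 9, and 0.17 at 9 or above. From 7 up, 6 genes were at least 2-fold higher and 3 lower. The 8608 genes below the array median held 87 (1.01%) of the higher and 68 (0.79%) of the lower genes. Of these 155 genes (1.8%), 101 had their lower value under 2.78, so that their differences are set against a low signal.

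**Figure D2:**
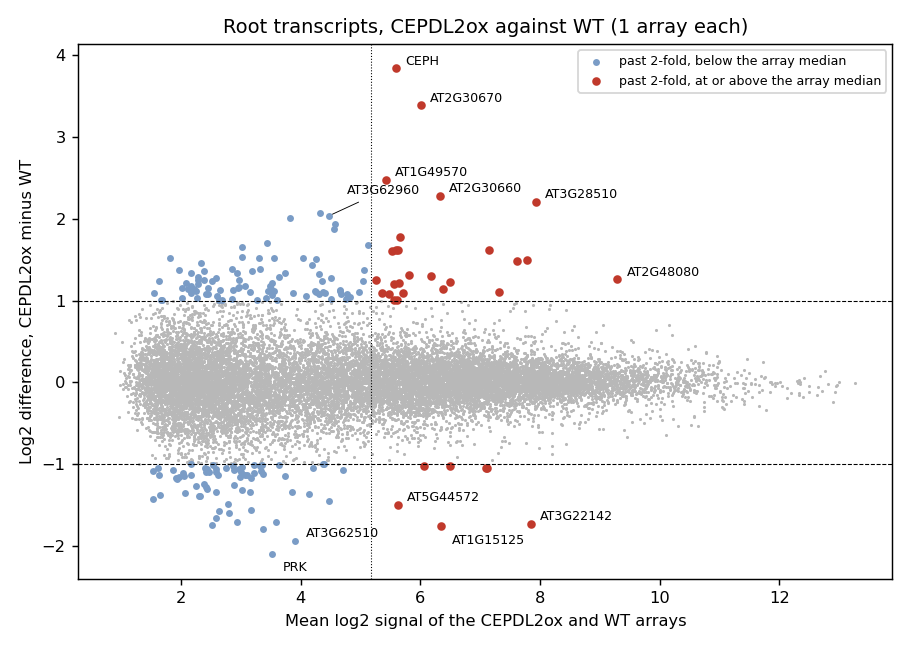
Log2 difference of each of 16548 genes, CEPDL2ox minus WT (y axis), against the mean log2 signal of both arrays (x axis); dashed lines mark 2-fold and the dotted line the array median of 5.17. Genes past 2-fold are red at or above the array median (33 genes) and blue below it (155 genes), and the spread of the grey points narrows as the signal grows.

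The genes that were higher in CEPDL2ox began with 2 neighbours on chromosome 2. AT2G30670, a tropinone reductase-like short-chain dehydrogenase gene, had signals of 7.70 in CEPDL2ox, 5.68 in CEPD1ox, 5.77 in CEPD2ox and 4.31 in WT, a 10.4-fold difference between CEPDL2ox and WT. The gene beside it, AT2G30660, of the crotonase family, had 7.47 in CEPDL2ox, 6.17 in CEPD1ox, 6.18 in CEPD2ox and 5.19 in WT, a 4.87-fold difference. Both genes were higher in CEPDL2ox than on any other array, with the other lines between it and WT. The measured loci next to this pair did not share the difference: AT2G30650 lay 0.18 below WT on the log2 scale in CEPDL2ox (2.62 against 2.80) and AT2G30680 0.33 above (3.92 against 3.59).

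AT1G49570, a gene for a class III peroxidase, the secreted enzymes that act on the cell wall and on hydrogen peroxide, was 5.55-fold higher than WT. Its signal was 6.65 in CEPDL2ox, 6.04 in CEPD1ox, 6.30 in CEPD2ox and 4.18 in WT, so WT stood apart from all 3 lines. The gene table describes 8 genes as class III peroxidases, which do not include AT1G49570. Their differences ran from -0.54 to 0.36, and their median was 0.12. None of them was past 2-fold, but at 1.14% over all genes this does not set them apart. AT1G49570 was named for its large difference, so it is not compared with them.

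On chromosome 3, 4 genes of 13 measured between AT3G28500 and AT3G28630 were at least 2-fold higher, beside 0.683% over all genes. The ends of this stretch were set around genes already found past 2-fold, so this count is a description and not a result. AT3G28510, an AAA-type ATPase gene, had 9.04 in CEPDL2ox, 7.68 in CEPD1ox, 7.36 in CEPD2ox and 6.83 in WT, a 4.61-fold difference. AT3G28580, another AAA-type ATPase gene, was 2.36-fold higher, with 5.65 in CEPDL2ox and 4.41 in WT. AT3G28530 was 2.11-fold higher (6.01 in CEPDL2ox, 4.94 in WT). AT3G28620, a RING finger gene, was 2.89-fold higher (3.79 in CEPDL2ox, 2.26 in WT), from a low WT signal. The other 9 genes of the stretch lay between -0.59 and 0.40, and the median of all 13 was 0.06. Several are paralogs of each other, and whether their probes overlap was not examined.

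Further along chromosome 3, AT3G46190 was 3.41-fold higher, with 6.54 in CEPDL2ox, 5.52 in CEPD1ox, 5.35 in CEPD2ox and 4.77 in WT. AT3G46080, a C2H2 zinc finger transcription factor gene of the same stretch, was 2.14-fold higher (5.90 in CEPDL2ox, 4.80 in WT). AT3G46170, a short-chain dehydrogenase-like gene between them, differed the other way, at 2.74 in CEPDL2ox and 4.45 in WT. On chromosome 4 the adjacent genes AT4G11390 and AT4G11393 were both higher. AT4G11390, with cysteine- and histidine-rich C1 domains, had 5.96 in CEPDL2ox and 4.29 in WT, and AT4G11393, a defensin-like gene, had 5.88 in CEPDL2ox and 4.63 in WT. In all, 16 of the 113 higher genes and 2 of the 75 lower ones lay within 10 steps in gene order of another gene past 2-fold in the same direction. The sets are of unlike size, which by itself changes how often a neighbour is found, so these counts are not compared. A share over all genes was not computed. Whether either count differs from the spacing of other genes was not tested, and the annotated rows are an uneven sample of the genome.

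Other genes 2.80- to 3.07-fold higher were AT3G05770, AT1G29020, AT5G59080, AT5G41280, AT5G22555 and AT2G38600. AT5G41280 belongs to the cysteine-rich secreted proteins with DUF26 domains, and its signal was 6.34 in CEPDL2ox, 5.46 in CEPD1ox, 5.52 in CEPD2ox and 4.73 in WT. AT2G38600, an acid phosphatase gene of the HAD superfamily, had 8.36 in CEPDL2ox, 8.09 in CEPD1ox, 7.78 in CEPD2ox and 6.87 in WT. Here again WT was the array apart, whereas for AT3G05770 the CEPD1ox value (4.98) lay near that of WT (4.82) and CEPDL2ox was at 6.43. AT2G48080, a gene of the 2-oxoglutarate- and iron-dependent oxygenases, had the highest signals among the genes past 2-fold, with 9.92 in CEPDL2ox, 9.20 in CEPD1ox, 8.57 in CEPD2ox and 8.66 in WT. Its difference was 1.26 on the log2 scale, while CEPD2ox lay 0.09 below WT.

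The remaining higher genes at this signal level differed by up to 1.32 on the log2 scale. Among those with a known kind of product was AT2G16005, a lipid-binding ML-domain gene known as ROSY1. It had 7.10 in CEPDL2ox, 6.32 in CEPD1ox, 6.54 in CEPD2ox and 5.87 in WT. AT5G51830, a fructokinase gene, had 7.87 in CEPDL2ox, 7.56 in CEPD1ox, 6.99 in CEPD2ox and 6.76 in WT. AT5G43590, a patatin-like acyl hydrolase gene, had 6.25 in CEPDL2ox against 5.20 in CEPD1ox, 5.31 in CEPD2ox and 5.15 in WT. AT5G54050, with C1 domains, had 6.16 in CEPDL2ox, 5.94 in CEPD1ox, 5.32 in CEPD2ox and 4.96 in WT. AT4G27850, glycine-rich, was 2.46-fold higher. AT5G43450, of the 2-oxoglutarate-dependent oxygenases, was the gene closest to the 2-fold bound from above. It had 6.07 in CEPDL2ox, 5.82 in CEPD1ox, 5.39 in CEPD2ox and 5.06 in WT. Closest from below was AT5G11930, the class III glutaredoxin gene GRXC10, at 1.00 to 2 decimals (5.83 in CEPDL2ox, 5.22 in CEPD1ox, 4.77 in CEPD2ox and 4.84 in WT).

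**Figure D3:**
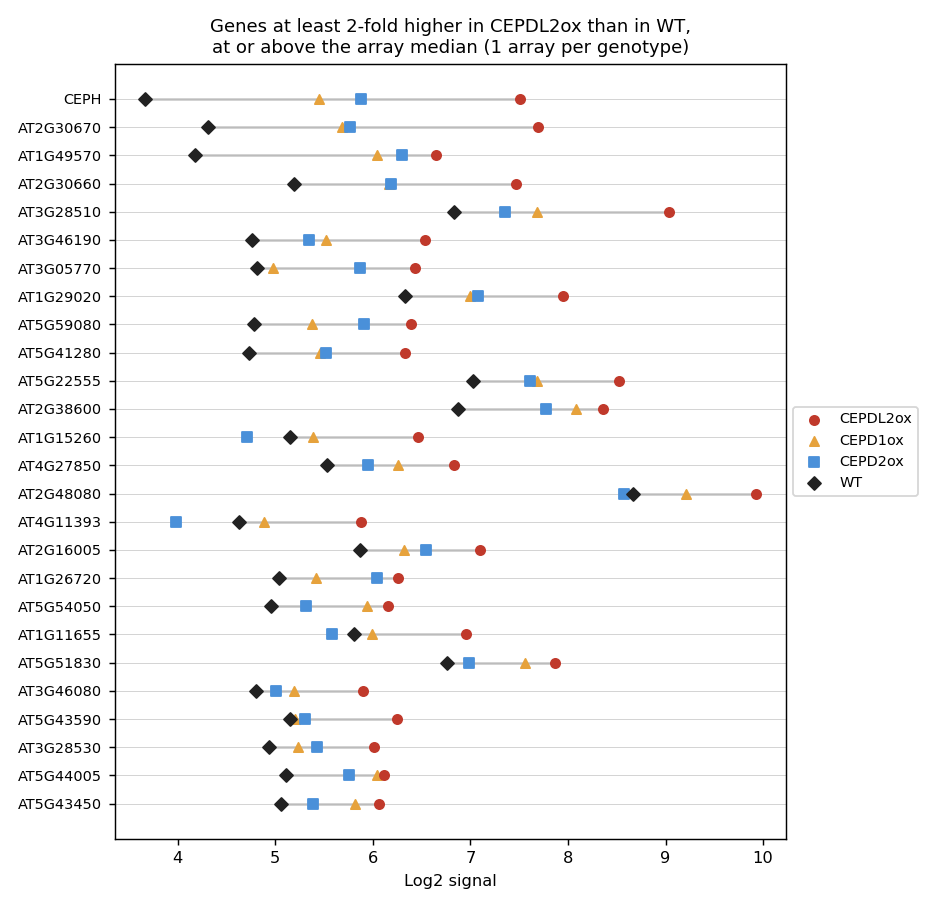
Log2 signal (x axis) on each array for the 26 genes at or above the array median that were at least 2-fold higher in CEPDL2ox (red circles) than in WT (black diamonds), ordered by the difference; triangles are CEPD1ox and squares CEPD2ox, 1 array each. The genes were chosen for a CEPDL2ox point at least 2-fold above WT, and the points of the other lines lie at varying places, from 3.99 (CEPD2ox, AT4G11393) to 9.20 (CEPD1ox, AT2G48080).

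The 26 higher genes were chosen for a high CEPDL2ox value, so its place above the other arrays is described here and not counted as a result. In these genes its difference from the mean of CEPD1ox and CEPD2ox ran from 0.22 to 1.97, with a median of 0.86. The median difference from WT in the same genes was 1.31 in CEPDL2ox, 0.70 in CEPD1ox and 0.58 in CEPD2ox. Set against that mean of both lines, 13 (0.164%) of the 7940 genes were at least 2-fold higher in CEPDL2ox and 2 (0.0252%) lower. The 7940 genes were filtered on their CEPDL2ox and WT signals. A gene could thus enter through a high CEPDL2ox value, but not through a high CEPD1ox or CEPD2ox value. Over all genes the balance was the other way, with 45 (0.272%) higher and 60 (0.363%) lower, together 0.635%. AT2G30670 (3.92-fold) and CEPH (3.59-fold) led the 13 higher genes against that mean, followed by AT5G52390, of the PAR1 family, at 2.95-fold and AT3G28510 at 2.86-fold. AT5G52390 was not past 2-fold against WT: it had 5.58 in CEPDL2ox, 4.36 in CEPD1ox, 3.69 in CEPD2ox and 5.21 in WT. The 2 genes lower against that mean were AT1G58320, of the PLAC8 family (5.51 in CEPDL2ox, 6.92 in CEPD1ox, 6.49 in CEPD2ox and 6.04 in WT), and AT1G19530 (5.10 in CEPDL2ox, 5.62 in CEPD1ox, 6.62 in CEPD2ox and 5.89 in WT). Against CEPD2ox alone, 28 of the 7940 genes, filtered in the same way, were higher and 7 lower. The counts over all genes, given in the last section, did not lean to the higher side.

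The 7 genes at least 2-fold lower in CEPDL2ox were fewer, and their values in the other lines were mixed. AT1G15125, an S-adenosylmethionine-dependent methyltransferase gene, was 3.39-fold lower, with 5.47 in CEPDL2ox, 5.39 in CEPD1ox, 6.16 in CEPD2ox and 7.23 in WT. AT3G22142, a lipid-transfer-like gene, was 3.32-fold lower, with 6.98 in CEPDL2ox, 5.71 in CEPD1ox, 5.97 in CEPD2ox and 8.71 in WT. CEPDL2ox was therefore 1.14 above the mean of the other lines in this gene on the log2 scale, and its direction turned without the WT array. AT5G44572 was 2.82-fold lower (4.88 in CEPDL2ox, 4.30 in CEPD1ox, 5.81 in CEPD2ox and 6.38 in WT).

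The other 4 lower genes were just past 2-fold, between -1.04 and -1.03. AT4G12500, a further lipid-transfer-like gene, had 6.58 in CEPDL2ox, 6.87 in CEPD1ox, 6.29 in CEPD2ox and 7.62 in WT. AT4G00910, of the aluminium-activated malate transporter family of anion channels, had 6.60 in CEPDL2ox, 7.84 in CEPD1ox, 7.04 in CEPD2ox and 7.64 in WT. CEPDL2ox was thus the lowest array for AT4G00910 but not for AT4G12500. AT1G44030, with C1 domains, had 5.98 in CEPDL2ox, 6.92 in CEPD1ox, 6.12 in CEPD2ox and 7.01 in WT. AT2G44940, an AP2/ERF transcription factor gene, had 5.54 in CEPDL2ox, 6.08 in CEPD1ox, 5.95 in CEPD2ox and 6.56 in WT.

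Short of 2-fold came APS4, an ATP sulfurylase gene of sulfate assimilation, at -0.95 (6.72 in CEPDL2ox, 7.19 in CEPD1ox, 7.92 in CEPD2ox and 7.67 in WT). AT1G62510, lipid-transfer-like, was at -0.94, and AT5G44400, which encodes a flavoprotein oxidase like berberine bridge enzyme, at -0.88. The aspartyl protease gene AT1G44130 was at -0.88 and the F-box gene AT1G47340 at -0.87, with AT3G46616 at -0.87 and SIS, a gene named for its response to salt, at -0.84. Against WT, AT1G62510 was at -0.94 in CEPD1ox and -0.23 in CEPD2ox, and AT3G46616 at -0.90 in CEPD1ox and -0.73 in CEPD2ox. AT1G44130 was at 0.34 in CEPD1ox and -0.45 in CEPD2ox.

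**Figure D4:**
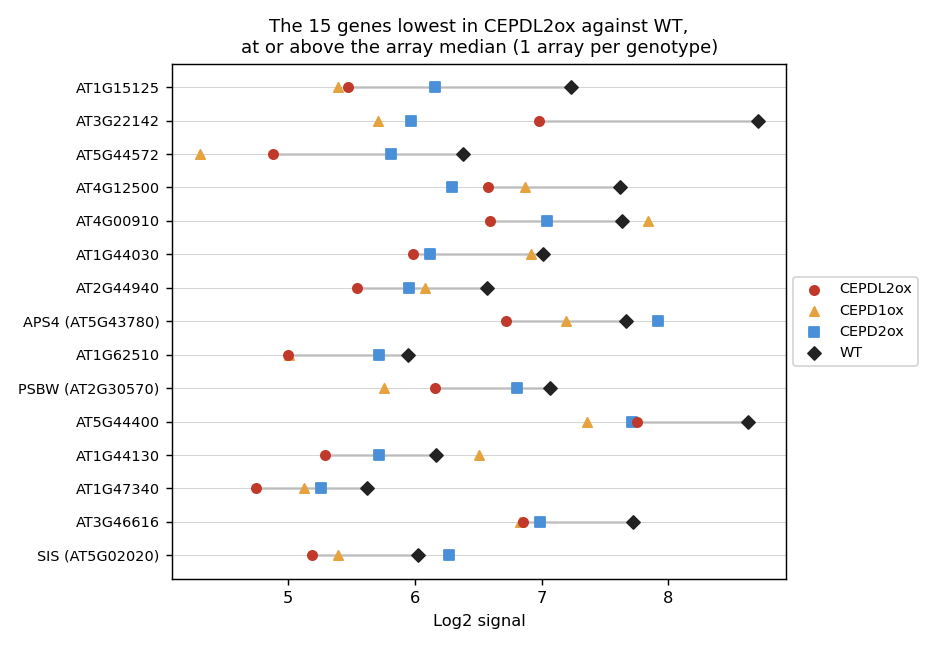
Log2 signal (x axis) on each array for the 15 genes at or above the array median with the most negative difference, CEPDL2ox (red circles) against WT (black diamonds); triangles are CEPD1ox and squares CEPD2ox, 1 array each. The first 7 genes from the top are at least 2-fold lower, and CEPDL2ox is the lowest point for 3 of these 7. For AT1G15125, AT3G22142 and AT5G44572 the lowest point is CEPD1ox, and for AT4G12500 it is CEPD2ox.

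Below the array median the differences ran from -2.10 to 2.07, against -1.76 to 3.84 at or above it. GH3.9, of the GH3 family of acyl-acid amido synthetases that includes auxin-conjugating enzymes, was 4.20-fold higher, with 5.36 in CEPDL2ox, 4.06 in CEPD1ox, 4.27 in CEPD2ox and 3.29 in WT. The transcription factor gene bZIP42 was 4.01-fold higher (4.82 in CEPDL2ox, 3.69 in CEPD1ox, 4.03 in CEPD2ox and 2.81 in WT). AGL19, a MADS-box gene, was 3.83-fold higher, with 5.54 in CEPDL2ox, 4.55 in CEPD1ox, 3.02 in CEPD2ox and 3.601 in WT. GLR2.2, which encodes a cation channel related to glutamate receptors, was 3.66-fold higher than WT, but its values in the lines lay together, at 5.49 in CEPDL2ox, 5.36 in CEPD1ox and 5.72 in CEPD2ox, against 3.62 in WT.

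On the lower side, AT3G62510, related to protein disulfide isomerases, had 2.94 in CEPDL2ox, 3.12 in CEPD1ox, 3.07 in CEPD2ox and 4.88 in WT. AT5G28810 had 2.47 in CEPDL2ox and 4.26 in WT, and AT1G18130 had 1.64 in CEPDL2ox and 3.38 in WT. The CEPDL2ox values of AT5G28810 and AT1G18130 lay under the low-signal mark.

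Nuclear genes of photosynthesis, with median signals of 4.35 in CEPDL2ox and 4.94 in WT, mostly had negative differences. Of 14 nuclear genes of this kind with a named row, 13 had a difference below 0, beside 8147 of 16548 over all genes, and 1 was at least 2-fold lower, beside 0.453%. Their median was -0.54, beside 0.00 over all genes. The list was drawn up after values of these arrays had been seen. PRK, a Calvin cycle enzyme gene, was 4.30-fold lower, with 2.47 in CEPDL2ox, 3.27 in CEPD1ox, 2.94 in CEPD2ox and 4.58 in WT. Its CEPDL2ox value lay under the low-signal mark, so the size of its fold rests on a low signal. PSBW, a photosystem II subunit gene, had 6.15 in CEPDL2ox, 5.75 in CEPD1ox, 6.81 in CEPD2ox and 7.06 in WT, and RCA, the Rubisco activase gene, 5.66 in CEPDL2ox, 5.73 in CEPD1ox, 6.14 in CEPD2ox and 6.31 in WT. PORB, of chlorophyll synthesis, PSB27 and PSBY lay between -0.92 and -0.83. LHCB4.3, at 0.17, was the member above 0.

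The same 14 genes had a median of -0.71 in CEPD1ox and -0.10 in CEPD2ox against the same WT array. Against the mean of those lines, CEPDL2ox had a median of -0.15. Genes encoded in the plastid differed less: the 63 measured ones, all at or above the array median, had a median difference of -0.13. Of these, 54 lay below 0, beside 3791 of 7940 genes at that level. None was past 2-fold, but at 0.416% of genes at that level this does not set them apart. The medians of the plastid genes were -0.18 in CEPD1ox and 0.04 in CEPD2ox. In RNA from whole roots, fewer cells of a type and less RNA per cell cannot be told apart. PRK and RCA were also the only members of the 12 shoot markers with a named row, and the part of shoot or greening tissue in this result was not tested. Of the root marker lists, only the root hair genes EXPA18 (8.63 in CEPDL2ox, 8.24 in WT) and EXPA7 (6.83 in CEPDL2ox, 6.60 in WT) had a named row. Their signals were at or above the array median on both arrays. Markers of the endodermis, suberin, xylem, phloem, root cap and meristem were not analysed here.

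Class III glutaredoxins, the family that CEPD polypeptides belong to, bind TGA transcription factors and repress or modify their activity. Of 21 loci, 20 were measured, 2 were at least 2-fold higher and 0 lower, beside 0.683% and 0.453% over all genes. Below the array median, where 19 of the 20 lay, these shares were 1.01% and 0.79%. Their median difference was 0.35, with 16 members above 0, beside 8250 of 16548 over all genes, and 4 below. For 9 of the 20, the CEPDL2ox and WT values both lay under the low-signal mark. The median of the 20 genes was 0.28 in CEPD1ox and 0.26 in CEPD2ox against WT. Beside AT3G62960, ROXY2 was past 2-fold, at 3.12 in CEPDL2ox, 2.83 in CEPD1ox, 3.61 in CEPD2ox and 2.06 in WT. Its WT value lay under the low-signal mark. GRX480, which interacts with TGA factors in salicylic acid signalling, had 3.41 in CEPDL2ox, 2.81 in CEPD1ox, 3.00 in CEPD2ox and 2.46 in WT. GRXS1 was the lowest member, at 2.94 in CEPDL2ox and 3.64 in WT. Of the clustered GRXS genes on chromosome 4, which respond to nitrate, GRXS7 (AT4G15670) was at 0.98 and GRXS4 (AT4G15680) at 0.66, both from WT signals of at most 3.11. GRXS8, GRXS3 and GRXS5 were at 0.20, 0.35 and 0.01. Against the mean of the other lines the median of the 20 genes was -0.01. Without the CEPD family loci the median was again 0.35 against WT, and 1 of 16 genes, ROXY2, was at least 2-fold higher. As these paralogs are similar in sequence, their signals may share probes.

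Auxin response genes had a median difference of 0.47 over 7 of 14 members. All 7 lay above 0, beside 8250 of 16548 over all genes, and 0 were past 2-fold, beside 1.14%. The list was chosen with earlier results of these data known. GH3.3, an auxin-conjugating enzyme gene, had 8.60 in CEPDL2ox, 8.02 in CEPD1ox, 7.50 in CEPD2ox and 7.71 in WT, a difference of 0.90. GH3.5 had 8.71 in CEPDL2ox, 8.41 in CEPD1ox, 8.14 in CEPD2ox and 8.10 in WT. LBD29 and LBD16, transcription factor genes of lateral root formation, were at 0.47 and 0.41, and PUCHI, which acts in lateral root primordia, at 0.53 from 2.85 in WT. IAA29 was the lowest member, at 0.18, with 2.47 in CEPDL2ox and 2.29 in WT, both under the low-signal mark. It was higher in the other lines, at 3.23 in CEPD1ox and 3.20 in CEPD2ox. Of the 7, 5 had mean signals at or above the array median. The list's median was 0.31 in CEPD1ox and 0.04 in CEPD2ox against WT, and 0.38 in CEPDL2ox against the mean of the other lines. The 5 SAUR genes measured, a family known for early auxin responses, had a median of 0.27, with AT4G34800 the highest at 0.79 (4.81 in CEPDL2ox, 4.02 in WT). All 5 lay below the array median, and 2 had both values under the low-signal mark. Their median was 0.23 in CEPD1ox and 0.16 in CEPD2ox against WT. Against the mean of the other lines it was 0.08 in CEPDL2ox.

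**Figure D5:**
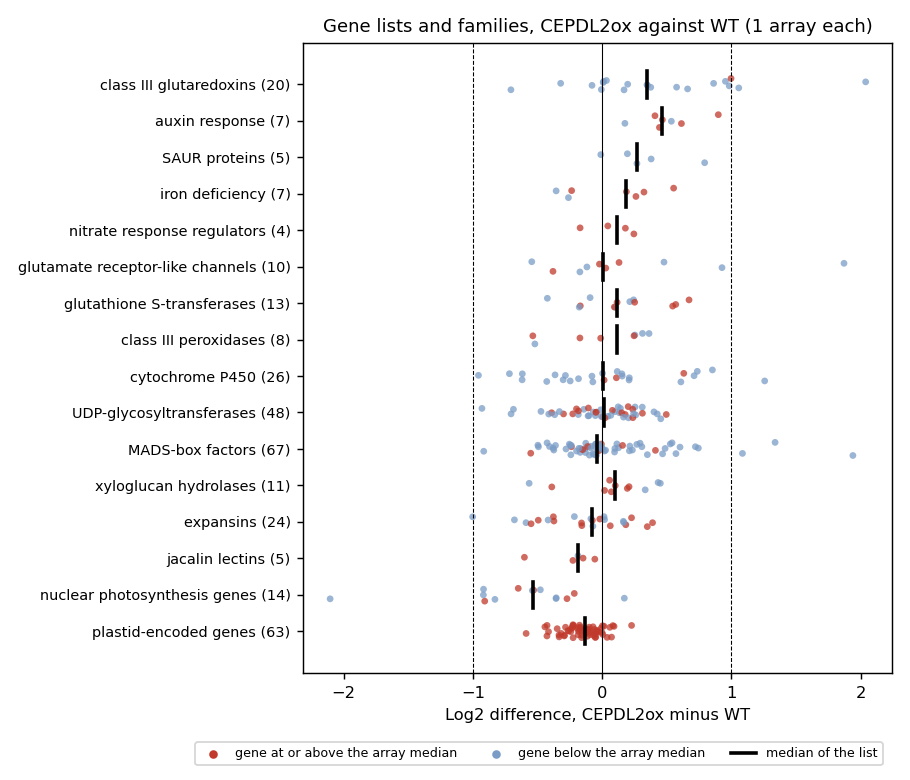
Log2 difference, CEPDL2ox minus WT (x axis), of each measured member of 16 gene lists and families (rows, number measured in brackets), coloured red at or above the array median and blue below it, with the median of each list as a black bar and dashed lines at 2-fold. Nuclear photosynthesis genes (median -0.54) lie mostly left of 0 and auxin response genes (median 0.47) right of it, while most other lists centre near 0.

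Genes of nitrate regulation that could be read differed little. HHO1, HHO2 and HHO3, which encode nitrate-induced repressors, were at 0.25, 0.04 and 0.18, and NRG2, a regulator of nitrate signalling, at -0.17. All 4 had signals of 6.99 or more in WT. NRT2.5, a high-affinity nitrate transporter gene known for long-term nitrogen starvation, had 2.15 in CEPDL2ox and 1.99 in WT, under the low-signal mark on both arrays. Other members of the high-affinity nitrate transport list except CEPH, and all of the nitrate assimilation and the ammonium, urea and amino acid uptake lists, were not analysed here.

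Of 26 iron deficiency genes, 7 were measured and 0 were past 2-fold, which at 1.14% over all genes does not set them apart. Their median was 0.19, beside 0.00 over all genes. The same list had a median of 0.11 in CEPD1ox and -0.11 in CEPD2ox against WT. IMA2, which encodes a peptide that signals iron deficiency, was at 0.55 (6.39 in CEPDL2ox, 5.83 in WT), IMA1 at 0.19, and PYE, a bHLH regulator of the iron response, at 0.32. S8H, of coumarin synthesis, was lower in CEPDL2ox than on the other arrays, at 4.94 in CEPDL2ox, 6.59 in CEPD1ox, 5.70 in CEPD2ox and 5.30 in WT. The copper deficiency regulator gene CITF1 was at 0.18. SDI2 and BGLU28, induced by sulfate starvation, were at 0.26 and 0.42. The cytokinin response genes ARR15 and ARR16 were at -0.51 and -0.44, with all of their CEPDL2ox and WT values under 2.78.

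Larger families centred near 0, and their counts past 2-fold stand beside 0.683% higher and 0.453% lower over all genes (1.01% and 0.79% below the array median). Members were found by name in the gene table, so a family may be incomplete. Both values lay under the low-signal mark for 41 of 67 MADS-box, 11 of 26 cytochrome P450 and 10 of 48 UDP-glycosyltransferase genes. Medians near 0 thus rest partly on low signals. The 48 UDP-glycosyltransferase genes had a median of 0.01 and 0 past 2-fold. The 26 cytochrome P450 genes had a median of 0.01 with 1 past 2-fold, CYP71B19 (3.01 in CEPDL2ox, 1.75 in WT). Its WT value lay under the low-signal mark. Among 67 MADS-box genes the median was -0.04, and 3 genes, AGL19, AGL86 and AGL79, all below the array median, were at least 2-fold higher. AGL86 had 2.83 in CEPDL2ox and 1.49 in WT, the latter under the low-signal mark. AGL79 had 5.32 in CEPDL2ox, 4.21 in CEPD1ox, 3.42 in CEPD2ox and 4.23 in WT. The 13 glutathione S-transferase genes, of detoxification, had a median of 0.12, with GSTU22 at 0.67, GSTU28 at 0.57 and GSTU25 at 0.55. Of 24 expansin genes, which loosen cell walls, EXPB5 was at the 2-fold bound (3.89 in CEPDL2ox, 4.90 in WT), and the family median was -0.08. All 5 jacalin-type lectin genes lay below 0, beside 8147 of 16548 over all genes, with JAL22 at -0.60 (7.68 in CEPDL2ox, 8.28 in WT) and a median of -0.19. Of 10 glutamate receptor-like genes, GLR2.3 was next to GLR2.2, at 0.93 (3.35 in CEPDL2ox, 4.10 in CEPD1ox, 3.71 in CEPD2ox and 2.42 in WT), and the median was 0.00.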

How the data were processed

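The authors deposited log2 signals per array row. The submitters' processing notes name Affymetrix Expression Console 1.3, and how probes were summarized and normalized is not stated in the sources used here. The log base was inferred from the range of values, 0.431 to 13.8. Over the rows, Pearson's r of pairs of arrays was 0.983 to 0.984, and array medians ran from 5.11 to 5.18. Values were used as deposited, and a fold is 2 raised to the log2 difference.

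The platform annotation named 1 gene for 16722 rows, several for 759 and none for 20927. Of the first, 16670 matched the TAIR10.1 gene table, used for names and gene order only. For 148 genes with several rows, the row with the highest mean was taken. With 1 array per genotype no test was run. Genes named were the CEPD loci, CEPH, the 15 most positive and 15 most negative at or above the array median, 5 of each below it, up to 4 members per list and up to 3 per family. Genes near the bound, neighbours, genes apart from the other lines and further list members (auxin response, photosynthesis, glutaredoxins and others) were named after their values were seen. Members and lists were chosen with earlier results of these data known. Alternatives were fold thresholds, filters, median shift, quantile and cyclic loess normalization, other comparators and row means. Python 3.11.15 and R 4.3.3 with limma 3.58.1 were used, and the counting was tested on simulated data.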

Additional observations from a re-analysis of the deposited data

Results flagged for a closer look

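Rows outside the gene comparison also carried differences. Among rows without the name of 1 gene, 75 rows at or above the array median were at least 2-fold higher in CEPDL2ox than in WT and 53 lower, out of 11157. Many such rows repeat the values of another row, and 52 higher and 37 lower remained out of 9470 with distinct values. The 2 unnamed rows with the largest differences were 13545557 and 13545469. Row 13545557 had a log2 signal of 11.2 in CEPDL2ox, 11.2 in CEPD1ox, 9.51 in CEPD2ox and 4.13 in WT, a difference of 7.06 between CEPDL2ox and WT. Row 13545469 had 11.1 in CEPDL2ox, 11.2 in CEPD1ox, 9.50 in CEPD2ox and 4.39 in WT, a difference of 6.75. Both rows were high in all 3 lines and low in WT, and what they detect is not given in the sources used here.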

How the results depend on the processing

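No paired analysis was possible because each genotype had 1 array. The counts for CEPDL2ox against WT, at or above the array median and over all genes, stayed within 1.5 times under median shift, quantile and cyclic loess normalization and the mean over rows. No median of all genes moved by more than 0.0268 under these normalizations. At 1.5-fold, the counts were 111 higher and 76 lower (187 in all) at or above the median, and 585 higher and 585 lower (1170) over all genes. At 3-fold they were 10 and 2 (12), and 18 and 10 (28). Requiring both values above the median of their array left 10 higher, 16 in all, and requiring this of the higher value gave 40 higher. Set against the mean of WT, CEPD1ox and CEPD2ox, 17 genes were higher and 0 lower (17) at or above the median, and 50 higher and 33 lower (83) over all genes. Set against the mean of CEPD1ox and CEPD2ox, these were 13 and 2 (15), and 45 higher and 60 lower (105) over all genes. AT3G22142 turned to 0.18 against the mean of all 3 arrays and to 1.14 against the mean of CEPD1ox and CEPD2ox. Against the mean of those 2 lines, GLR2.2 (AT2G24720) turned to -0.0537, ROXY2 (AT5G14070) to -0.10 and AT5G22590 to -0.18. Over the normalizations, the row means and these 2 comparators, AT3G62960 stayed between 2.01 and 2.09, CEPH between 1.84 and 3.84 and AT2G30670 between 1.97 and 3.39. Set against CEPD2ox alone, a choice made after seeing the data and run for counts only, 28 genes were higher and 7 lower (35) at or above the median, and 97 and 103 (200) over all genes. The counts for CEPD1ox and CEPD2ox with both values above the median were also added after seeing the data. The median of photosynthesis genes moved to -0.15 and that of class III glutaredoxins to -0.01 without the WT array, and the cause was not tested. The low-signal mark was a limit for 101 of the 155 genes past 2-fold below the array median.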
